A study of Mus musculus with 15 samples.

Results

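The comparison described here set Oboxa4 directly against Oboxa7, 2 mouse Obox genes that had been expressed in the same kind of fibroblast, and asked which genes differed between their transcriptomes. It used 6 of the 15 libraries of the series, taken by their labels: 3 after Oboxa4 and 3 after Oboxa7. The host cells were primary embryonic fibroblasts of C57Bl/6 mice at passage 2, which were electroporated with a plasmid and sorted by flow cytometry for its fluorescent reporter 48 h later, before poly-A RNA was sequenced. One group carried Oboxa4 (also named Obox1), the other Oboxa7 (also named Gm8053), each under the CMV viral promoter with a V5 tag at its C terminus, and the Control group of 3 libraries carried the same vector without an insert. The genes were thus driven by a viral promoter in a cell type other than the early embryo in which they are normally transcribed. The study's methods say that experiments were matched by date, but the sources used here give no date for a library and do not say whether replicates were separate cultures, so that the p-values rest on differences among libraries whose source, technical or biological, is not known. Throughout, the values of a gene are listed for replicates 1, 2 and 3 in that order, as counts scaled to a common library size (CPM) with the trimmed mean of M values over these 9 libraries.

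Obox genes are homeobox genes of the PRD class that lie in a large cluster near Crx on mouse chromosome 7. They arose from duplication of Crx, an Otx family gene best known for switching on photoreceptor genes in the retina, and their own transcripts are found in oocytes and early embryos before implantation. Oboxa4 and Oboxa7 belong to different subgroups of the cluster: the subgroup of Oboxa4 is transcribed from the oocyte on, and that of Oboxa7 slightly later, during cleavage. A homeodomain protein binds short AT-rich sites in DNA, and proteins of the Otx and Crx families favour the letters TAATCC, which read GGATTA on the other strand.

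Each library carried the gene its label names. The Obox1 row had 2338 to 3712 counts (54.9 to 81.7 RPKM, the count scaled by gene length and library size) after Oboxa4, 17 to 34 counts after Oboxa7 and 0 in Control. The row for Gm8053 had 0 to 1 counts after Oboxa4, 2227 to 3899 counts (52.5 to 76.1 RPKM) after Oboxa7 and 0 in Control, so both transgenes were read at a like level per annotated length. The plasmids carried coding sequences, whose length may differ from the annotated one, so that an equal dose of the 2 factors is not shown. Rows named for Crxos or Obox genes, 20 in all of which 3 passed the filter on low counts, were left out of every count below. Library totals were 28440415 to 38903272 counts after Oboxa4, 33032614 to 42778823 after Oboxa7 and 31239855 to 33849761 in Control. All 12 fibroblast markers were present. On the first principal component of all 15 libraries, Control replicate 1 lay at -20.6. This was on the side of the Crxos libraries (-32.6 to -31.8) and 1 Oboxa1 library (-32.9), but apart from them. The 6 libraries compared here lay between 14.8 and 17.2, and Control replicates 2 and 3 at 13.9 and 13.7. Control levels are therefore given library by library, and none of them enters the test. Within the 6 libraries the first component held 48.2% of the variance and separated the Oboxa4 libraries (10.1 to 11.9) from the Oboxa7 libraries (-12.4 to -8.98).

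Of 13762 rows tested, 390 (2.83%) differed between Oboxa4 and Oboxa7 at an adjusted p under 0.05 with the higher group more than 25% above the lower one (edgeR quasi-likelihood test, Benjamini-Hochberg adjustment), and are said to be called. Higher after Oboxa4 were 207 rows (1.5%) and lower were 183 (1.33%). In each of the 390 the groups did not overlap, which was also true of 24.7% of all rows tested. The sizes were unequal: no row was more than 4-fold higher after Oboxa4 and 6 were more than 2-fold higher, the largest by 2.72-fold (Lppr1, a phospholipid phosphatase-related membrane protein, named after its values were seen), while 41 rows were more than 2-fold lower after Oboxa4 and 18 of them more than 4-fold. Low counts bear on these sizes, since a row near 0 in one group can reach a large fold on few reads. Of the rows called lower, 20 had a mean under 1 CPM after Oboxa7, and of those called higher, 1 had a mean under 1 CPM after Oboxa4. The median log2 fold change over all rows tested was 0.00. These counts depended on single libraries. Leaving out Oboxa4 replicate 2 gave 101 higher and 131 lower, Oboxa4 replicate 3 gave 114 higher and 142 lower, Oboxa7 replicate 1 gave 125 higher and 153 lower, and Oboxa7 replicate 3 gave 45 higher and 76 lower, each on fewer samples. All 390 kept their direction in each of these fits, which was all but fixed in advance, since their groups did not overlap.

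**Figure D1:**
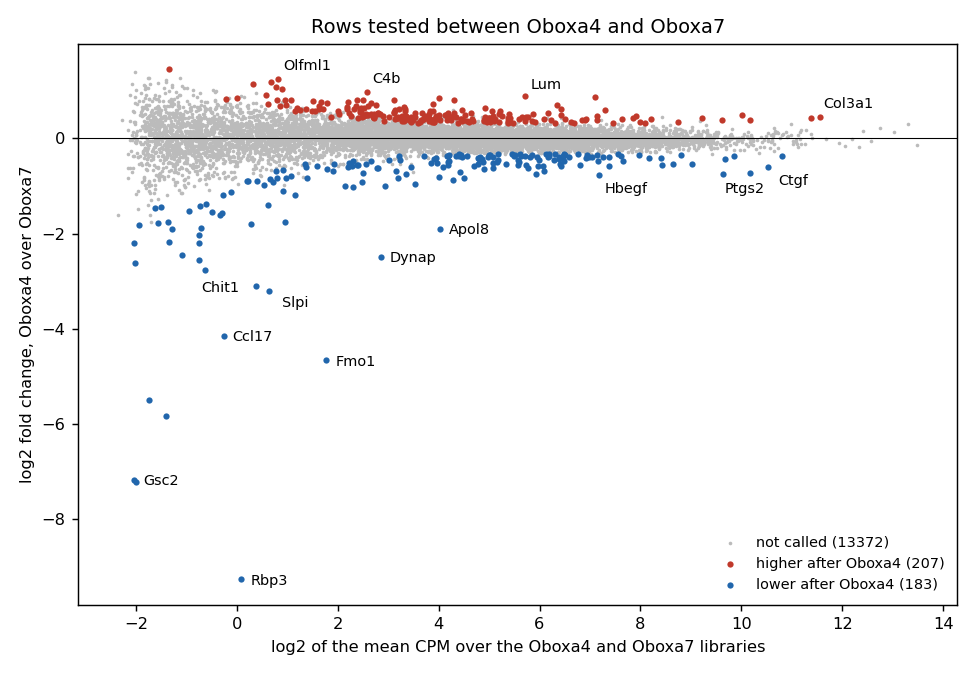
Each point is a row tested, with the log2 of its mean CPM over the Oboxa4 and Oboxa7 libraries on the x axis and its log2 fold change, Oboxa4 over Oboxa7, on the y axis; red points were called higher (207) and blue points lower (183) after Oboxa4. The fold changes above 0 stay under 1.5 on the log2 scale, whereas a scatter of blue points reaches far below; the points under -7 are genes with no read in the Oboxa4 libraries, whose fitted value depends on the small count added to every row.

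The position of the Control mean was counted for each called row. Among the 207 rows higher after Oboxa4, the mean of the 3 Control libraries lay below both groups for 148 rows (71.5%), between them for 49 (23.7%) and above both for 10 (4.83%). The shares among uncalled rows with a log2 fold change above 0 were 53.3%, 18.8% and 27.9%. Among the 183 rows lower after Oboxa4, Control lay below both groups for 34 rows (18.6%), between them for 75 (41%) and above both for 74 (40.4%). The shares among uncalled rows with a log2 fold change below 0 were 29%, 15.4% and 55.6%. Called rows have a wider gap between the groups, which by itself raises the share lying between them, so that these shares are a description. Of the 18 rows lower by more than 4-fold, Control lay between the groups for 13 and below both for 5. With Control replicate 1 left out of the mean, a choice made after seeing the data, the counts were 169, 29 and 9 for the higher rows and 33, 70 and 80 for the lower rows.

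The largest differences belonged to genes that were silent or nearly so after Oboxa4 and in Control and that were read in all 3 Oboxa7 libraries. Rbp3 (GRCm38 chr14:33954003-33964219) encodes the retinoid-binding protein of the space between photoreceptors and pigment epithelium, and is a known Crx target in the retina. It had 0 CPM in all 3 Oboxa4 libraries, 1.88, 2.22 and 2.27 CPM after Oboxa7 and 0 CPM in all 3 Control libraries (adjusted p = 4.0e-05). A count of 0 over the group of 3 Oboxa4 libraries allows up to 3 counts, or 0.0286 CPM, which makes Rbp3 at least 74.5-fold lower after Oboxa4. Gsc2, a homeobox gene of the goosecoid family, had 0 CPM in all 3 Oboxa4 libraries, 0.342, 0.518 and 0.607 CPM after Oboxa7 and 0 CPM in all 3 Control libraries, and was at least 17.4-fold lower after Oboxa4 (adjusted p = 0.0035). The predicted gene Gm11544 likewise had 0 CPM in all 3 Oboxa4 libraries, 0.456, 0.427 and 0.631 CPM after Oboxa7 and 0 CPM in all 3 Control libraries, at least 18.0-fold lower (adjusted p = 0.0025). Gsc2, Gm11544, Mlc1 and Ano2 were named after their values were seen, because they lie under the level set for named genes. Among the 9 libraries, Rbp3, Gsc2 and Gm11544 were read only in those of Oboxa7.

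To show the DNA in front of such genes, the bases next to the transcription start were read from RefSeq promoters (GRCm38.p6) for 5 of the 6 genes that were more than 4-fold lower after Oboxa4 and held TAATCC on either strand in a window of 250 bases before to 50 after a start. Each line gives the 150 bases before the start, 5′ to 3′ on the strand of the gene, with TAATCC or GGATTA in capitals.
Rbp3: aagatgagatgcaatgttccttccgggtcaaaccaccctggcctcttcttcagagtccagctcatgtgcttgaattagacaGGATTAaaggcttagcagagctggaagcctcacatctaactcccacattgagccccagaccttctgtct
Gsc2: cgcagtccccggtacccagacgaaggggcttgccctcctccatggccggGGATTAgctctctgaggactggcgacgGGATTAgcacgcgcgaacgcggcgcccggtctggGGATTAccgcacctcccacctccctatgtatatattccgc
Ccl17: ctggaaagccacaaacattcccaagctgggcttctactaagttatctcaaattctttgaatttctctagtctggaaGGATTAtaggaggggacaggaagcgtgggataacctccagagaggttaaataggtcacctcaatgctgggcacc
Ano2: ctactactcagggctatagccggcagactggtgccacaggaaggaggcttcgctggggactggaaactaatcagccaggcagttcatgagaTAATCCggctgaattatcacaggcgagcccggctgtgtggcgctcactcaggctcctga
Alpl: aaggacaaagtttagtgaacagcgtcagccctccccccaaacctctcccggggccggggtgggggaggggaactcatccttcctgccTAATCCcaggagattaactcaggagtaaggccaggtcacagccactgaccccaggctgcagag
These stretches lie at chr14:33953853-33954002 on the plus strand (Rbp3), chr16:17915028-17915177 on the minus strand (Gsc2), chr8:94810303-94810452 on the plus strand (Ccl17), chr6:125690269-125690418 on the plus strand (Ano2, one of 3 starts in the table) and chr4:137766476-137766625 on the minus strand (Alpl, one of 2 starts). The match began 69 bases before the start in Rbp3, 74 in Ccl17, 59 in Ano2 and 63 in Alpl, and Gsc2 held 3 matches at 101, 74 and 40 bases before its start. The sixth gene, Chit1, had its match 235 bases before the start, outside the stretch shown. The stretches of Ccl17 and Alpl lie inside the RefSeq bounds of these genes (chr8:94809380-94812038 and chr4:137741731-137796384), so that their starts are internal ones. The other windows of Ano2 and Alpl held 0 matches.

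Promoters were in the table for 13 of the 18 rows lower by more than 4-fold, and 6 of these 13 (46.2%) held TAATCC on either strand in at least one window. The share was 8.4% (10 of 119) among the other rows lower after Oboxa4, 8.39% (13 of 155) among the rows higher after Oboxa4, and 6.76% (733 of 10851) among all rows tested, with 7.06% of all 32851 windows in the table. Rows of the first set had 1.31 windows on average and all rows tested 1.28. TAATTA, a site of many other homeodomain proteins, was in 0 of the 13, in 3 of the 155 rows higher after Oboxa4 (1.94%) and in 3.31% of all rows tested; it shares its first 4 letters with TAATCC. The 18 rows were taken by the size of their fold change, so that these shares are a description, and a match of letters is not a bound site.

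Further genes were low but read after Oboxa4 and several-fold more abundant after Oboxa7. Fmo1 (chr1:162829561-162866610), a flavin-containing monooxygenase that oxidises drugs and other foreign compounds, had 0.353, 0.333 and 0.107 CPM after Oboxa4, 5.87, 5.91 and 7.90 CPM after Oboxa7 and 0, 0.0886 and 0.161 CPM in Control (log2 fold change -4.66 ± 0.27, adjusted p = 3.6e-06, SE throughout). Where a gene is said to be at a value in what follows, that value is its log2 fold change, Oboxa4 over Oboxa7. In Fmo1 the lowest Oboxa7 library was far above the highest Oboxa4 library, and it had the smallest p of the 13762 rows. Ccl17 (chr8:94809380-94812038), a chemokine that draws T cells through the receptor Ccr4, had 0.141, 0.102 and 0.0267 CPM after Oboxa4, 1.255, 1.80 and 1.68 CPM after Oboxa7 and 0.0292, 0.207 and 0.0644 CPM in Control (log2 fold change -4.15 ± 0.38, adjusted p = 2.1e-04). Slpi, an inhibitor of neutrophil elastase made by epithelia, had 0.176, 0.358 and 0.347 CPM after Oboxa4, 2.51, 3.02 and 2.97 CPM after Oboxa7 and 0.496, 0.207 and 0.483 CPM in Control (log2 fold change -3.21 ± 0.23, adjusted p = 3.5e-05). Chit1, a chitin-digesting enzyme, had 0.247, 0.179 and 0.374 CPM after Oboxa4, 2.11, 2.62 and 2.27 CPM after Oboxa7 and 0.146, 0.207 and 0.0644 CPM in Control (log2 fold change -3.11 ± 0.25, adjusted p = 8.3e-05). In these 4 genes the Oboxa4 and Control libraries lay in one low range and the Oboxa7 libraries stood above both.

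The same pattern was found for Alpl, the tissue-nonspecific alkaline phosphatase of bone, with 0.141, 0.230 and 0.107 CPM after Oboxa4, 0.941, 1.40 and 1.05 CPM after Oboxa7 and 0.292, 0.0886 and 0.225 CPM in Control (log2 fold change -2.77 ± 0.34, adjusted p = 0.0014), and for A2m, a plasma protease inhibitor, with 0.0705, 0.230 and 0.187 CPM after Oboxa4, 1.198, 0.914 and 0.958 CPM after Oboxa7 and 0.117, 0 and 0 CPM in Control (log2 fold change -2.56 ± 0.34, adjusted p = 0.0022). Mlc1, a membrane protein of astrocytes, had 0, 0.0256 and 0 CPM after Oboxa4, 0.713, 0.944 and 0.584 CPM after Oboxa7 and 0, 0.0295 and 0 CPM in Control (adjusted p = 8.2e-04). Ano2, a calcium-activated chloride channel of olfactory and photoreceptor cells, had 0.0353, 0 and 0 CPM after Oboxa4, 0.570, 0.670 and 0.514 CPM after Oboxa7 and 0, 0.0295 and 0 CPM in Control (adjusted p = 0.0013). With a single read in the Oboxa4 libraries, neither gene is given a fold change. Cxcl9, an interferon-induced chemokine, had 0.423, 0.742 and 0.427 CPM after Oboxa4, 2.00, 1.83 and 1.87 CPM after Oboxa7 and 1.14, 0.0591 and 0.290 CPM in Control (log2 fold change -1.81 ± 0.23, adjusted p = 0.0019), so that Control replicate 1 lay between the Oboxa4 and Oboxa7 libraries.

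In other strongly differing genes most Control libraries lay nearer to Oboxa7, and the Oboxa4 libraries were the low ones. Dynap, a membrane protein that binds dynactin, had 2.19, 2.12 and 2.30 CPM after Oboxa4, 11.9, 10.2 and 14.7 CPM after Oboxa7 and 18.1, 8.68 and 8.37 CPM in Control (log2 fold change -2.49 ± 0.15, adjusted p = 4.8e-06), and no Oboxa7 or Control library came near the Oboxa4 range. Apol8, an apolipoprotein L, had 6.49, 5.14 and 9.13 CPM after Oboxa4, 25.0, 29.9 and 22.5 CPM after Oboxa7 and 4.67, 23.2 and 29.4 CPM in Control (log2 fold change -1.90 ± 0.17, adjusted p = 1.6e-04), where Control replicate 1 alone matched the Oboxa4 libraries. Papl, a purple acid phosphatase, had 0.600, 1.10 and 0.935 CPM after Oboxa4, 3.59, 2.41 and 3.08 CPM after Oboxa7 and 1.605, 2.01 and 2.09 CPM in Control (log2 fold change -1.75 ± 0.22, adjusted p = 0.0019), with Control between the groups. Gcnt2, which builds the branched I blood group sugar, had 16.7, 14.6 and 17.4 CPM after Oboxa4, 30.6, 28.9 and 27.4 CPM after Oboxa7 and 17.1, 27.9 and 27.6 CPM in Control (log2 fold change -0.84 ± 0.08, adjusted p = 2.5e-04), with Control replicate 1 again beside the Oboxa4 libraries. Rbp3, Fmo1, Ccl17, Slpi, Chit1, Dynap and Papl were called under each of the 17 alternatives tried. Both kinds of Control pattern thus occurred among the genes lower after Oboxa4.

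**Figure D2:**
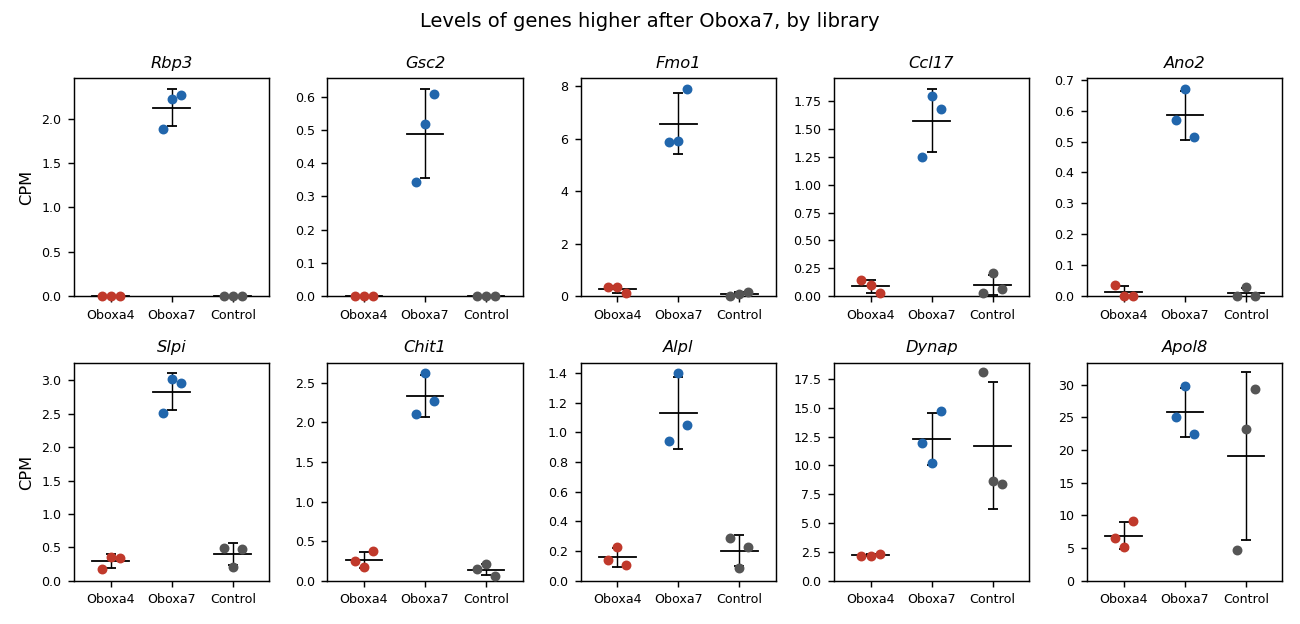
CPM of 10 genes in each Oboxa4 (red), Oboxa7 (blue) and Control (grey) library, one point per library, with a horizontal line at the mean and bars of 1 SD (n = 3). From Rbp3 to Alpl the Control libraries lie with the Oboxa4 libraries near 0, whereas for Dynap all 3 Control libraries lie within or near the Oboxa7 range and for Apol8 Control replicates 2 and 3 do.

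Several genes of epithelial and mesothelial cells, listed as markers of another cell type that a fibroblast culture may hold, were lower after Oboxa4 as well. Of 10 tested, 5 (50%, against 1.33% of all rows) were called lower and none higher. The median log2 fold change was -0.50, with 8 values negative and 2 positive. Epcam, an adhesion protein of epithelia, had 0.141, 0.179 and 0.107 CPM after Oboxa4, 0.513, 0.670 and 0.771 CPM after Oboxa7 and 0.204, 0.118 and 0.193 CPM in Control (log2 fold change -2.18 ± 0.36, adjusted p = 0.0075). Krt18, a keratin of simple epithelia, had 4.51, 5.02 and 5.82 CPM after Oboxa4, 8.70, 10.0 and 11.8 CPM after Oboxa7 and 4.03, 11.1 and 13.4 CPM in Control (log2 fold change -0.99 ± 0.13, adjusted p = 0.0024), and its partner Krt8 had 0.141, 0.384 and 0.427 CPM after Oboxa4, 0.770, 0.944 and 0.958 CPM after Oboxa7 and 0.204, 0.236 and 0.290 CPM in Control (log2 fold change -1.42 ± 0.32, adjusted p = 0.03). Krt19, another such keratin, had 27.1, 26.6 and 34.5 CPM after Oboxa4, 36.6, 42.6 and 45.7 CPM after Oboxa7 and 38.0, 51.1 and 65.7 CPM in Control (log2 fold change -0.50 ± 0.10, adjusted p = 0.023), and the mesothelial surface protein Msln had 15.1, 14.8 and 15.4 CPM after Oboxa4, 20.4, 21.1 and 22.2 CPM after Oboxa7 and 7.76, 18.9 and 26.3 CPM in Control (log2 fold change -0.50 ± 0.07, adjusted p = 0.0025). The epithelial cadherin Cdh1 had 0.317, 0.384 and 0.0534 CPM after Oboxa4, 0.599, 0.366 and 0.350 CPM after Oboxa7 and 0.0584, 0.266 and 0.0966 CPM in Control and was not called. The summed level of the list was 55.0 to 65.5 CPM after Oboxa4, 76.8 to 91.0 CPM after Oboxa7 and 54.1 to 115.6 CPM in Control, and no marker was at 0 in all 6 libraries. In bulk RNA, fewer cells of a type and less RNA per cell cannot be told apart, and the part of such cells in the results above was not tested. Without Oboxa7 replicate 3, 2 members were called, and 3 each without Oboxa4 replicate 2 and without Oboxa7 replicate 2.

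The defining markers of fibroblasts moved the other way: 3 of 12 tested (25%, against 1.5% of all rows) were called higher after Oboxa4 and none lower, with a median log2 fold change of 0.23 and 11 of 12 values positive. The called members were the matrix genes Lum (0.89), Col3a1 (0.44) and Dcn (0.42), while Pdgfra, a growth factor receptor of mesenchyme, was at 0.25, Thy1 at 0.07 and Vim (vimentin) at -0.07, none of them called. The summed level of the list was 38649 to 40626 CPM after Oboxa4, 31709 to 36881 CPM after Oboxa7 and 28922 to 29735 CPM in Control, so that the groups did not overlap. The called markers numbered 1 without Oboxa4 replicate 2, without Oboxa7 replicate 1 or without Oboxa7 replicate 3, and 2 without Oboxa4 replicate 3. Of the chondrocyte markers, 1 of 9 tested (11.1%, a single call) was called higher, the cartilage proteoglycan Acan (0.42), and the summed level was 104.6 to 111.1 CPM after Oboxa4, 101.6 to 102.7 CPM after Oboxa7 and 97.5 to 142.1 CPM in Control. The Acan call was lost when any library other than Oboxa4 replicate 3 was left out.

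The remaining marker lists gave 1 call. Among pericyte and smooth muscle markers, 1 of 8 tested (12.5%, against 2.83% of all rows) was called: Rgs5, a pericyte regulator of G protein signalling, with 8.92, 7.75 and 7.21 CPM after Oboxa4, 15.9, 13.4 and 16.7 CPM after Oboxa7 and 4.55, 8.42 and 7.18 CPM in Control (log2 fold change -0.96 ± 0.11, adjusted p = 9.7e-04). Of the macrophage and leukocyte list 4 of 17 rows in the table were tested and none was called, its summed level being 9.70 to 11.3 CPM after Oboxa4, 12.7 to 13.5 CPM after Oboxa7 and 10.1 to 12.9 CPM in Control. All 4 tested members had a log2 fold change below 0 (median -0.39). Cd68 had 6.52, 7.19 and 5.72 CPM after Oboxa4 and 7.90, 7.74 and 8.22 CPM after Oboxa7, and Cd14 was at -0.33. The markers Emr1, C1qb, C1qc and Tyrobp were at 0 in all 6 Oboxa4 and Oboxa7 libraries. None of the endothelial (6 tested), skeletal muscle (9), neural (8), adipocyte (1) and erythroid (1) markers was called.

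Many genes that answer to growth factor signalling through the ERK kinase were lower after Oboxa4. ERK, activated by receptors such as the EGF receptor, rapidly induces transcription factors (immediate-early genes) and, soon after, its own inhibitors. Of 32 immediate-early genes tested, 11 were lower and 1 higher after Oboxa4 (37.5% called, median log2 fold change -0.22), against 1.33% lower, 1.5% higher and a median of 0.00 over all rows tested. Of 27 ERK feedback regulators and targets, 10 (37%) were lower and none higher (median -0.18). Of 15 EGF family ligands, receptors and regulators, 4 (26.7%) were lower and none higher (median -0.13). Some genes stand in more than one list: Fosl1, Lif and Errfi1 among them.

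Among the ligands, Hbegf, a heparin-binding ligand of the EGF receptor, had 108, 99.9 and 113 CPM after Oboxa4, 179, 179 and 190.2 CPM after Oboxa7 and 164, 219.5 and 223 CPM in Control (log2 fold change -0.78 ± 0.06, adjusted p = 4.5e-05). Ereg, or epiregulin, had 145, 118 and 139.6 CPM after Oboxa4, 184, 199.8 and 214 CPM after Oboxa7 and 125, 279.9 and 294 CPM in Control (log2 fold change -0.58 ± 0.08, adjusted p = 0.0033), and Areg, or amphiregulin, had 5.43, 4.43 and 6.60 CPM after Oboxa4, 8.01, 7.62 and 9.58 CPM after Oboxa7 and 8.72, 19.3 and 19.3 CPM in Control (log2 fold change -0.63 ± 0.14, adjusted p = 0.035). Control replicates 2 and 3 had more of all 3 ligands than any Oboxa4 or Oboxa7 library. Feedback inhibitors had the same direction: Errfi1, which binds and blocks the EGF receptor, had 281, 265 and 293 CPM after Oboxa4, 421, 390.2 and 417 CPM after Oboxa7 and 337, 615 and 512 CPM in Control (log2 fold change -0.55 ± 0.06, adjusted p = 6.0e-04), and Spry2, an inhibitor of receptor tyrosine kinase signalling, had 63.3, 66.7 and 67.5 CPM after Oboxa4, 85.9, 95.1 and 90.2 CPM after Oboxa7 and 83.9, 109.8 and 119 CPM in Control (log2 fold change -0.46 ± 0.06, adjusted p = 0.0014). Phlda1, a pleckstrin homology protein induced by growth factors, had 42.9, 42.8 and 50.4 CPM after Oboxa4, 69.6, 75.7 and 83.2 CPM after Oboxa7 and 92.7, 84.3 and 94.5 CPM in Control (log2 fold change -0.75 ± 0.08, adjusted p = 7.1e-04). Its Oboxa7 libraries lay below its Control libraries and its Oboxa4 libraries lower still. The phosphatases Dusp4, Dusp5 and Dusp6, which switch ERK or related kinases off, had log2 fold changes of -0.44, -0.39 and -0.38, and the urokinase receptor Plaur had -0.40.

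Among the immediate-early transcription factors, Myc had 86.4, 87.3 and 97.4 CPM after Oboxa4, 126, 147 and 125 CPM after Oboxa7 and 134, 171 and 194 CPM in Control (log2 fold change -0.56 ± 0.07, adjusted p = 0.0022). Klf6, a zinc finger factor, had 432, 398 and 447 CPM after Oboxa4, 571, 642 and 632 CPM after Oboxa7 and 427, 642 and 674 CPM in Control (log2 fold change -0.53 ± 0.06, adjusted p = 0.0014), and the nuclear protein Csrnp1 had 41.5, 39.4 and 47.0 CPM after Oboxa4, 64.8, 62.1 and 70.6 CPM after Oboxa7 and 51.2, 71.2 and 74.6 CPM in Control (log2 fold change -0.63 ± 0.07, adjusted p = 0.0012). Ptgs2, the inducible cyclooxygenase of prostaglandin synthesis, had 939, 721 and 927 CPM after Oboxa4, 1355, 1414 and 1533 CPM after Oboxa7 and 1057, 1579.9 and 1645 CPM in Control (log2 fold change -0.74 ± 0.09, adjusted p = 0.0019). For these 4 genes the mean of Control replicates 2 and 3 lay above the Oboxa7 libraries. Not so for the Egr factors: Egr1 had 672, 691 and 739 CPM after Oboxa4, 897, 988 and 939.6 CPM after Oboxa7 and 445, 642 and 692 CPM in Control (log2 fold change -0.43 ± 0.06, adjusted p = 0.0028), so that Oboxa7 was the highest group, and Egr2 and Egr3 had log2 fold changes of -0.63 and -0.56. The orphan receptors Nr4a1 and Nr4a3 were at -0.42 and -0.92 and the stress-induced factor Atf3 at -0.87. The single member higher after Oboxa4 was Zfp36, whose protein hastens the decay of unstable mRNAs, with 189, 198 and 204 CPM after Oboxa4, 139, 169 and 162 CPM after Oboxa7 and 120.3, 87.8 and 90.9 CPM in Control (log2 fold change 0.33 ± 0.07, adjusted p = 0.025). Fosl1, the Egr and Dusp genes and Zfp36 were named after their values were seen.

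Leaving out single libraries left between 8 and 12 immediate-early genes and between 5 and 11 ERK targets lower, the lowest of each without Oboxa7 replicate 3. With the Control libraries in the fit, 0 immediate-early genes and 1 ERK target were called, and with Control replicate 1 out of that fit the numbers were 11 and 10.

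Another signal with this direction was the neurotrophin Bdnf, with 68.7, 64.7 and 74.0 CPM after Oboxa4, 93.0, 98.9 and 108 CPM after Oboxa7 and 72.5, 150.4 and 159 CPM in Control (log2 fold change -0.54 ± 0.07, adjusted p = 0.0021). Has2, which makes hyaluronan, had 59.7, 47.98 and 54.8 CPM after Oboxa4, 85.6, 76.8 and 79.7 CPM after Oboxa7 and 164, 104 and 82.8 CPM in Control (log2 fold change -0.58 ± 0.08, adjusted p = 0.0024). Of 26 targets of the mechanically controlled factors YAP and TEAD, 3 were lower and none higher (11.5%, against 1.33% of all rows lower; median -0.10). Ctgf, a matricellular protein and a standard YAP target, had 1068, 1206 and 1233 CPM after Oboxa4, 1667, 1932 and 1713 CPM after Oboxa7 and 1697, 1779 and 1957 CPM in Control (log2 fold change -0.60 ± 0.07, adjusted p = 0.0014). Ankrd1, a muscle ankyrin repeat protein, had 19.6, 21.3 and 21.95 CPM after Oboxa4, 29.5, 31.9 and 32.6 CPM after Oboxa7 and 66.0, 25.4 and 31.4 CPM in Control (log2 fold change -0.58 ± 0.07, adjusted p = 0.0011), and F3, the tissue factor that starts blood clotting, had a log2 fold change of -0.48 ± 0.09 (adjusted p = 0.013). Of 31 p53 targets, 4 were lower and 1 higher (16.1% called, against 2.83% of all rows; median -0.07): Perp, a desmosome protein, was at -0.58, Mdm2, the p53 ubiquitin ligase, at -0.42, Pmaip1 (Noxa, which promotes apoptosis) at -0.39 and Plk2 at -0.35, while Bbc3 (Puma, also pro-apoptotic) was at 0.39. The integrins Itga3 and Itga6 were 2 of 35 integrin and focal adhesion rows called (5.71%, against 2.83% of all rows), at -0.33 and -0.40. Without Oboxa7 replicate 3, 1 p53 target and 0 of the integrin list were called lower, and the integrin count was also 0 without Oboxa4 replicate 2, without Oboxa4 replicate 3 and without Oboxa7 replicate 1, and 4 without Oboxa4 replicate 1.

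Several genes of the connective tissue matrix were higher after Oboxa4. The share of all rows called was 1.5% higher and 1.33% lower. Of 28 proteoglycans and small leucine-rich repeat proteins tested, 5 (17.9%) were higher and none lower after Oboxa4 (median log2 fold change 0.17), and of 40 collagen chains 5 (12.5%) were higher and none lower (median 0.23). Both elastic fibre calls were in the same direction, 2 of 18 (11.1%), and all 18 had a positive value (median 0.22). Of 31 matricellular proteins, 6 were higher and 2 lower (25.8% called, median 0.13), and of 38 metalloproteases and their inhibitors 4 (10.5%) were higher and none lower (median 0.11). Collagen-modifying enzymes gave 2 of 31 (6.45%, median 0.09), Adamts2 at 0.35 and Adamts3 at 0.55, both of which trim procollagens. Among 17 basement membrane glycoproteins, only the laminin chain Lama2 was called (5.88%), at 0.35. The last of these shares rests on 1 call, and those of the elastic fibre proteins and the collagen-modifying enzymes on 2 each. The fibroblast markers given above moved with these lists and share Lum, Dcn and Col3a1 with them, and the epithelial markers were lower; their part in the matrix results was not tested.

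Lum (chr10:97565501-97572703), or lumican, a keratan sulfate proteoglycan that orders collagen fibrils, had 71.1, 71.3 and 61.9 CPM after Oboxa4, 39.2, 41.0 and 29.8 CPM after Oboxa7 and 24.01, 43.8 and 39.3 CPM in Control (log2 fold change 0.89 ± 0.10, adjusted p = 0.0011). Its Oboxa7 libraries overlapped the Control libraries and the Oboxa4 libraries lay above both. Prelp, a related protein that anchors basement membranes, had 37.2, 42.6 and 40.0 CPM after Oboxa4, 27.9, 29.9 and 23.2 CPM after Oboxa7 and 18.7, 17.2 and 14.3 CPM in Control (log2 fold change 0.57 ± 0.09, adjusted p = 0.0052), and decorin, Dcn, had 36.1, 40.6 and 33.4 CPM after Oboxa4, 27.6, 31.0 and 23.7 CPM after Oboxa7 and 36.6, 24.3 and 23.8 CPM in Control (log2 fold change 0.42 ± 0.10, adjusted p = 0.033). The cartilage proteoglycan Acan was at 0.42 and Aspn (asporin), named after its values were seen, at 0.42.

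Among the collagens, Col8a2, a short-chain collagen of vessel and corneal membranes, had 18.2, 25.9 and 17.5 CPM after Oboxa4, 12.6, 13.3 and 8.74 CPM after Oboxa7 and 3.68, 5.29 and 5.09 CPM in Control (log2 fold change 0.84 ± 0.17, adjusted p = 0.019). Col3a1, the fibrillar collagen of soft tissue, had 3565, 3602 and 3195 CPM after Oboxa4, 2738, 2789 and 2078 CPM after Oboxa7 and 1219, 1638 and 1472 CPM in Control (log2 fold change 0.44 ± 0.10, adjusted p = 0.032). Its levels were graded, highest after Oboxa4 and lowest in Control, with no overlap between the 3 groups. Col6a1 and Col6a2, chains of the beaded filament collagen, had log2 fold changes of 0.38 ± 0.08 and 0.39 ± 0.08, and Col12a1 of 0.42 ± 0.10. Eln, or elastin, had 92.5, 119 and 90.0 CPM after Oboxa4, 67.2, 76.7 and 42.0 CPM after Oboxa7 and 18.3, 28.5 and 24.6 CPM in Control (log2 fold change 0.70 ± 0.17, adjusted p = 0.047), and the microfibril protein Mfap2 had 49.6, 61.9 and 54.4 CPM after Oboxa4, 41.9, 45.9 and 36.7 CPM after Oboxa7 and 32.1, 33.0 and 31.5 CPM in Control (log2 fold change 0.42 ± 0.09, adjusted p = 0.029). For both, Oboxa7 lay between Oboxa4 and Control, with no overlap. Oboxa7 replicate 3 was the lowest Oboxa7 library for Lum, Prelp, Dcn, Col8a2, Col3a1, Eln and Mfap2. Without it, 0 collagens, 0 elastic fibre proteins, 0 matricellular proteins and 2 proteoglycans were called higher, each on fewer samples. Collagen calls also fell to 2 without Oboxa4 replicate 2 and to 1 without Oboxa4 replicate 3, elastic fibre calls to 0 without either and to 1 without Oboxa7 replicate 1, proteoglycan calls to 2 without Oboxa4 replicate 2 and without Oboxa7 replicate 1, and matricellular calls to 1 without Oboxa4 replicate 2. Metalloprotease calls were 0 without Oboxa7 replicate 3 and 1 without Oboxa4 replicate 3.

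**Figure D3:**
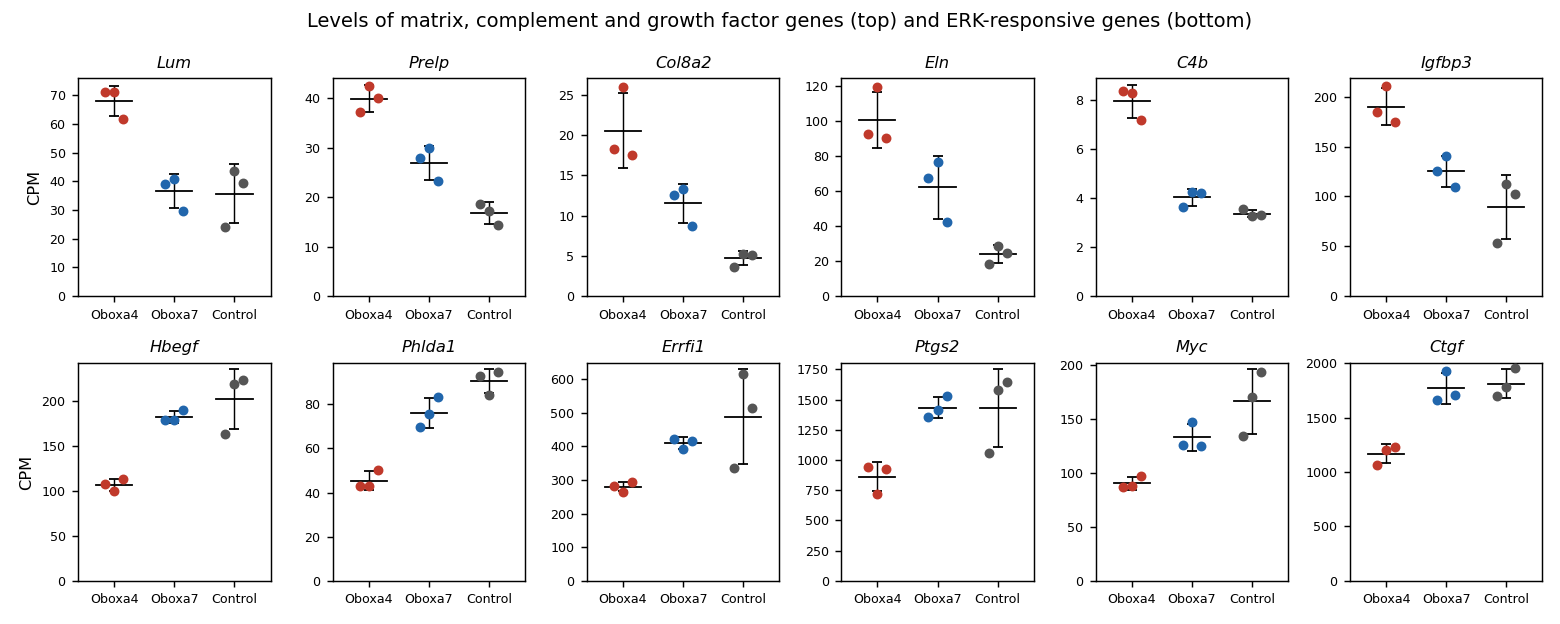
CPM of 12 genes in each Oboxa4 (red), Oboxa7 (blue) and Control (grey) library, with a horizontal line at the mean and bars of 1 SD (n = 3). In the upper row (matrix, complement and growth factor genes) the Oboxa4 mean is the highest and the Control mean lies below that of Oboxa7. For Lum the latter rests on Control replicate 1: without it the Control mean is 41.5 CPM, against 36.6 CPM after Oboxa7. In the lower row (ERK-responsive genes and Ctgf) all Oboxa4 libraries lie below all others.

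Matricellular proteins regulate cells from within the matrix rather than build it. Tnxb, or tenascin X, had 6.56, 5.19 and 5.69 CPM after Oboxa4, 3.94, 2.96 and 3.25 CPM after Oboxa7 and 4.35, 4.46 and 4.60 CPM in Control (log2 fold change 0.77 ± 0.14, adjusted p = 0.012), so that Control lay between the groups. Thbs4 (thrombospondin) was at 0.42, Wisp2 at 0.47 and Sparcl1, named after its values were seen, at 0.61. Ctgf and Egfl6 were the 2 lower members, Egfl6 at -0.48. The protease calls were Mmp19 at 0.36, Adam33 at 0.40, Adamts1 at 0.32 and Adamts9 at 0.38. Sned1, a matrix protein that interacts with fibronectin, had 216, 145 and 169 CPM after Oboxa4, 117, 81.3 and 93.1 CPM after Oboxa7 and 57.8, 103 and 86.9 CPM in Control (log2 fold change 0.86 ± 0.14, adjusted p = 0.0087). Olfml1, a secreted olfactomedin domain protein, had 1.83, 3.28 and 2.30 CPM after Oboxa4, 0.656, 1.10 and 1.35 CPM after Oboxa7 and 0.175, 0.236 and 0.225 CPM in Control (log2 fold change 1.248 ± 0.268, adjusted p = 0.026), which was the largest difference among the rows higher after Oboxa4 with a mean of at least 1 CPM. Clec14a, a lectin-like receptor otherwise known from endothelium, had 10.4, 12.1 and 10.7 CPM after Oboxa4, 6.82, 6.89 and 5.35 CPM after Oboxa7 and 3.09, 4.43 and 4.41 CPM in Control (log2 fold change 0.81 ± 0.11, adjusted p = 0.0028).

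Complement and other innate proteins also differed. Of 20 genes tested in a list of complement and related genes, 3 (15%, against 1.5% of all rows) were higher and none lower after Oboxa4 (median 0.07). The summed level of the list was 918.4 to 931.4 CPM after Oboxa4, 918.4 to 949.8 CPM after Oboxa7 and 712.4 to 906.6 CPM in Control, so that Oboxa4 and Oboxa7 overlapped. C4b (chr17:34728139-34743902) had 8.36, 8.27 and 7.16 CPM after Oboxa4, 3.62, 4.23 and 4.20 CPM after Oboxa7 and 3.53, 3.28 and 3.28 CPM in Control (log2 fold change 0.97 ± 0.11, adjusted p = 0.0011), with the Oboxa4 libraries well above the others. C3, the central complement protein, had 6.98, 6.88 and 6.17 CPM after Oboxa4, 4.28, 4.33 and 4.25 CPM after Oboxa7 and 2.74, 4.46 and 3.44 CPM in Control (log2 fold change 0.63 ± 0.10, adjusted p = 0.0067). The third was C1qtnf1, a secreted C1q-like protein rather than a complement component, at 0.35. Of 37 chemokines, cytokines and related secreted defence proteins, 4 were higher and 4 lower (21.6% called, against 2.83% of all rows, median -0.09). Cxcl12, which retains CXCR4-bearing cells in tissue, had 269.6, 296 and 277 CPM after Oboxa4, 208, 209.5 and 187 CPM after Oboxa7 and 215, 172 and 166 CPM in Control (log2 fold change 0.48 ± 0.06, adjusted p = 0.0018), and Cxcl15, a lung chemokine in mice, had 2.26, 2.81 and 2.43 CPM after Oboxa4, 1.14, 1.55 and 1.03 CPM after Oboxa7 and 0.292, 0.325 and 0.354 CPM in Control (log2 fold change 1.03 ± 0.19, adjusted p = 0.013). Ptx3, a soluble pattern receptor, was at 0.50. The lower members were Slpi and Cxcl9, given above, with Ccl8 at -1.18 and Lif at -0.34. The chemokine Ccl17, also given above and called lower, was not in this list and is not in its count. Serpins split likewise, 2 higher and 3 lower of 18 (27.8% called, median 0.14). Serpina3n and Serpina3g, whose sequences are alike and may share reads, were both at 0.60, whereas Serpinb9b was at -0.71 and Serpinb2 at -0.72. Serpins called lower numbered 1 without Oboxa4 replicate 2, without Oboxa7 replicate 1 or without Oboxa7 replicate 3, serpins called higher 1 without Oboxa7 replicate 3, and chemokines called lower 2 without Oboxa4 replicate 3.

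Growth and patterning signals differed in both directions. Igf1, insulin-like growth factor, had 12.7, 13.4 and 10.8 CPM after Oboxa4, 8.21, 7.86 and 7.13 CPM after Oboxa7 and 4.23, 5.43 and 3.86 CPM in Control (log2 fold change 0.66 ± 0.10, adjusted p = 0.0052), and the IGF carrier Igfbp3 had 185, 210.4 and 174 CPM after Oboxa4, 126, 140.5 and 109 CPM after Oboxa7 and 53.1, 113 and 103 CPM in Control (log2 fold change 0.60 ± 0.09, adjusted p = 0.0045). They were the 2 members called of 22 tested in the insulin-like growth factor list (9.09%, against 2.83% of all rows, median 0.07). Fgfr3, a fibroblast growth factor receptor, had 7.05, 6.58 and 6.38 CPM after Oboxa4, 3.94, 4.02 and 3.41 CPM after Oboxa7 and 2.10, 2.45 and 3.25 CPM in Control (log2 fold change 0.81 ± 0.11, adjusted p = 0.0025). Cyp26b1, the enzyme that degrades retinoic acid, had 35.7, 38.4 and 36.2 CPM after Oboxa4, 23.2, 22.7 and 24.9 CPM after Oboxa7 and 13.7, 23.2 and 21.9 CPM in Control (log2 fold change 0.64 ± 0.06, adjusted p = 3.7e-04). Of 56 TGF-beta and BMP rows 4 were higher and 1 lower (8.93% called, against 2.83% of all rows, median 0.02), among them Gdf10 at 0.78, the BMP antagonist Chrdl1 at 0.65 and Gdf6 at -0.84. Of 51 Wnt rows (7.84% called, against 2.83% of all rows, median 0.02) 3 were higher (Wnt16 at 0.48, the inhibitor Sfrp1 at 0.40 and Rspo3 at 0.36) and 1 lower (the nuclear effector Lef1 at -0.53). Leaving out single libraries gave 0 to 5 higher TGF-beta and BMP rows and 1 to 5 higher Wnt rows, the fewest of each without Oboxa7 replicate 3. Penk, the precursor of enkephalin peptides, had 1175, 1254 and 1222 CPM after Oboxa4, 887, 940.3 and 754 CPM after Oboxa7 and 148, 1135 and 1065 CPM in Control (log2 fold change 0.50 ± 0.08, adjusted p = 0.0049), with Control replicate 1 far below all other libraries.

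Of 36 Hox genes tested, which record position along the body axis, 4 (11.1%, against 1.5% of all rows) were higher and none lower after Oboxa4 (median 0.16). These were Hoxa3 at 0.48, Hoxa9 at 0.39, Hoxa13 at 0.37 and Hoxb3 at 0.39. Hox transcripts overlap, and how reads were assigned where they do is not given in the sources used here. None was called without Oboxa4 replicate 3, without Oboxa7 replicate 1 or without Oboxa7 replicate 2, and 1 member was called without Oboxa4 replicate 2 and without Oboxa7 replicate 3. None of 58 other positional and mesenchymal transcription factors was called (median 0.10), where Prrx1, the most abundant, was at 0.05. Among pluripotency and early embryo regulators, only 18 of 42 rows in the table passed the filter. Of these, 3 (16.7%, against 1.33% of all rows) were lower and none higher after Oboxa4 (median -0.20). The 3 lower members were Krt8 and Krt18, already given, and Eomes, a T-box factor of trophoblast and early mesoderm, with 0.141, 0.230 and 0.187 CPM after Oboxa4, 0.599, 0.366 and 0.584 CPM after Oboxa7 and 0.408, 0.325 and 0.418 CPM in Control (log2 fold change -1.44 ± 0.36, adjusted p = 0.047). The count was 1 without Oboxa7 replicate 3.

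Most metabolic and housekeeping lists held no called row, and the exceptions were redox enzymes and lipid handling. Gsta4, a glutathione transferase for lipid aldehydes, had 9.84, 13.4 and 11.7 CPM after Oboxa4, 19.7, 20.3 and 21.4 CPM after Oboxa7 and 9.22, 9.95 and 11.8 CPM in Control (log2 fold change -0.81 ± 0.10, adjusted p = 0.0014). It was 1 of 3 called among 53 redox and detoxifying enzymes (5.66%, against 2.83% of all rows, median -0.05), with Fmo1 and Gstt1 (0.63). Of these calls 1 was higher and 2 were lower. Apoe, a lipid carrier, had 7.58, 8.67 and 6.68 CPM after Oboxa4, 11.3, 15.7 and 11.5 CPM after Oboxa7 and 3.38, 3.54 and 3.86 CPM in Control (log2 fold change -0.74 ± 0.14, adjusted p = 0.014), one of 4 lower and 1 higher among 36 lipid handling rows (13.9% called, against 2.83% of all rows; median 0.03). The other lower members were Plin2, a coat protein of lipid droplets, at -0.33, and Apol9a and Apol9b at -0.36 and -0.37, whose near-identical sequences may share reads, and the higher member was Mylip, a ubiquitin ligase for the LDL receptor, at 0.79. Apol8, given above, and Apob at -1.61 were called lower too, but were not in this list and are not in its count. The lower members numbered 1 without Oboxa7 replicate 3 and 2 without Oboxa4 replicate 1. Ly6c1, a surface protein of the Ly6 family whose near-identical neighbours may share its reads, had 47.5, 55.0 and 53.5 CPM after Oboxa4, 80.2, 90.0 and 79.3 CPM after Oboxa7 and 29.1, 33.3 and 34.4 CPM in Control (log2 fold change -0.68 ± 0.07, adjusted p = 5.6e-04), lowest in Control. No row was called among 51 genes of DNA replication (median -0.02), 56 of mitosis (median -0.03), 79 cytoplasmic ribosomal proteins (median -0.05), 58 respiratory chain subunits (median -0.04), 35 genes of glycolysis and hypoxia (median -0.08), 25 of cholesterol synthesis and uptake (median -0.01), 20 aminoacyl-tRNA synthetases (median 0.01), 21 of MHC class I presentation (median 0.06) and 34 cadherins (median -0.03). The 84 ribosome biogenesis factors had a median of -0.11 with 6 positive values and none called; their most abundant member Ncl, or nucleolin, had 652, 613 and 693 CPM after Oboxa4, 711, 716 and 813 CPM after Oboxa7 and 951, 943 and 971 CPM in Control (log2 fold change -0.20 ± 0.07, adjusted p = 0.15). The proliferation marker Mki67 had 286, 229.8 and 266 CPM after Oboxa4, 275, 225 and 289 CPM after Oboxa7 and 264, 292 and 294 CPM in Control (log2 fold change -0.02 ± 0.10, adjusted p = 0.95), so that the groups overlapped.

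**Figure D4:**
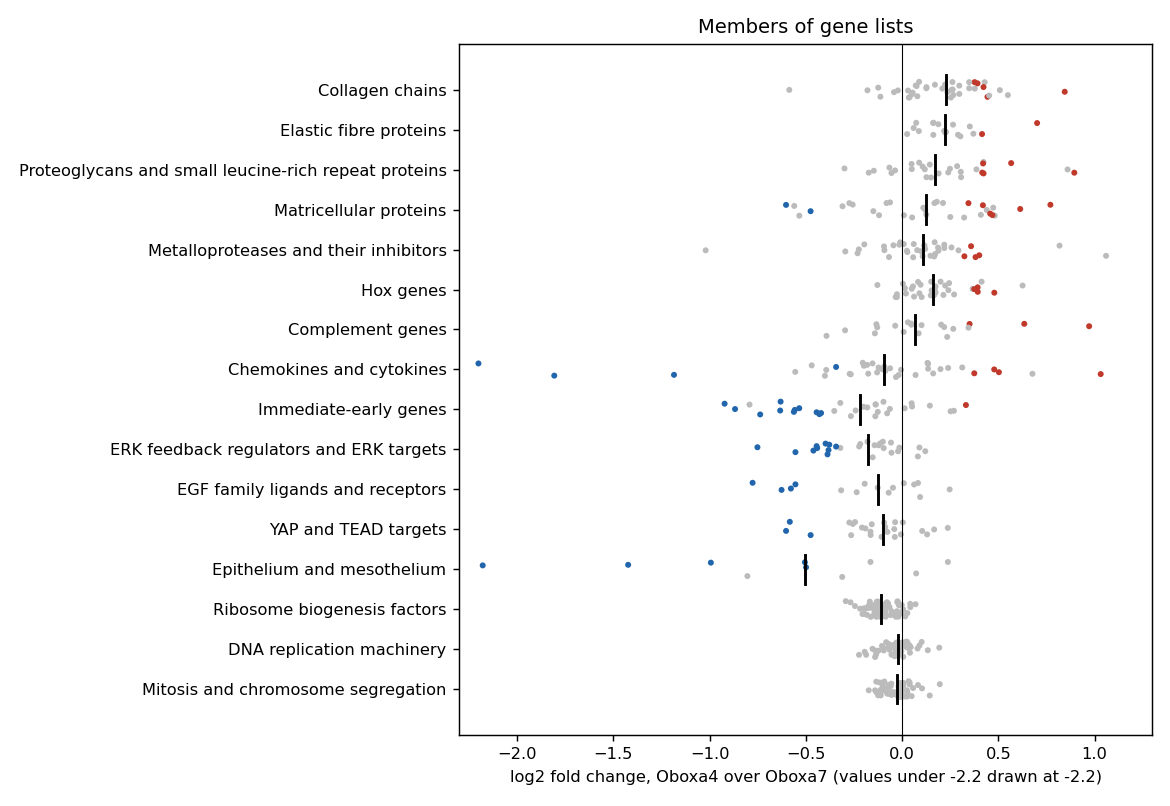
Each point is a tested member of a gene list, placed by its log2 fold change, Oboxa4 over Oboxa7, on the x axis (values under -2.2 drawn at -2.2); red members were called higher and blue members lower after Oboxa4, grey members were not called, and the black bar is the median of the list. Collagen, elastic fibre and proteoglycan members lie mostly to the right of 0, immediate-early, ERK and epithelial members mostly to the left, and replication and mitosis members in a narrow band around 0.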

How the data were processed

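Poly-A RNA of sorted primary mouse embryonic fibroblasts was sequenced in paired reads on a HiSeq4000. The authors aligned reads with STAR to GRCm38 (mm10) and counted them per NCBI protein-coding gene with featureCounts, and the deposited table holds these raw counts (22063 rows); no source used here gives versions, the strand setting or how reads with several matches were treated. RPKM of the 2 transfected genes were computed here from the deposited counts and gene lengths.

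The 3 Oboxa4 and 3 Oboxa7 libraries were tested with edgeR 4.0.16 (quasi-likelihood, TMM scaling, filterByExpr, R 4.3.3) on the whole table, with p-values adjusted over all 13765 rows tested. Rows named for Crxos or Obox genes, with 1 row known by an alias, were dropped from the counts afterwards. A row was called at an adjusted p under 0.05 with the higher group more than 25% above the lower. The study matched libraries by date; no date per library was given, so none entered the model, and the study's DESeq2 (1.42.0 here) served as an alternative. Log2 fold changes are Oboxa4 minus Oboxa7 with a prior count of 0.125. At depths of 28440415 to 42778823 counts, a gene with no read over 3 Oboxa4 libraries could reach 0.0286 CPM; this limit covers counting error only.

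The members and gene lists (43 gene and 10 marker lists) were chosen with earlier results of these data known. Named genes were the 15 with the largest change in each direction with at least 1 CPM and separate groups, the 10 with the smallest p, the called members of a list ranked by p (4 at most), and, for lists without a call, the 2 most abundant members. Promoter windows came from RefSeq (GRCm38.p6): 13633 of 13762 rows matched a symbol, 636 of them by a synonym, and 10851 had a window. Alternatives were other scalings, DESeq2, other filters, other libraries in the fit, a replicate block, other fold thresholds and leaving out each library. The fit was tested on simulated data.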

Additional observations from a re-analysis of the deposited data

How the results depend on the processing

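Of 207 rows higher and 183 lower after Oboxa4, the counts were 203 and 184 with DESeq2 size factors, 232 and 171 with upper-quartile scaling, 239 and 172 with library totals, 213 and 202 with the DESeq2 test, 270 and 230 without a filter on low counts, and 200 and 152 with at least 1 CPM in 3 libraries. Leaving out 1 library gave 45 to 252 higher and 76 to 237 lower, the fewest without Oboxa7 replicate 3. With all 15 libraries in the fit 5 were higher and 18 lower, and with the Control libraries 4 and 24; leaving Control replicate 1 out of that fit, a choice made after seeing the data, gave 254 and 213. Without a fold threshold 265 were higher and 297 lower, and in a test against a difference of 25% (glmTreat) 7 and 36. Every one of the 390 rows that had a value kept its direction under each of these settings, and no named gene reversed. The groups did not overlap in any of the 390, so that a kept direction was all but fixed in advance and is no test of the calls.

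The replicate number as a block gave 367 higher and 280 lower. The same-numbered libraries deviated together with correlations of 0.19, 0.19 and 0.08 over 13762 rows, and each library correlated best with its own number, which is a hint from the data, as the labels do not say what a number shares. Of the 130 called named genes, 130 kept the call under the block, 126 under the DESeq2 test, 120, 87 and 96 without Oboxa4 replicate 1, 2 or 3, 95, 103 and 63 without Oboxa7 replicate 1, 2 or 3, and 16 with all 15 libraries. Of 1908 counts of list members under the alternatives, 1552 were within 1.5 times the main count or were 0 where the main count was 0. Many main counts were 0, so that this number says little about the lists with calls. Among the 2526 rows with an unadjusted p under 0.05, those under 25% cannot be called by this rule, and calls of genes under 1 CPM rest on few reads.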

Other observations

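Rows with names that start with Zfp, given to zinc finger genes, were looked at after such names were seen among the calls. They were taken by name alone and are not a single family of DNA-binding proteins. The higher ones include Zfp36, given above, whose protein acts on mRNA. Of 330 Zfp rows tested, 20 (6.06%) were higher and 1 (0.303%) lower after Oboxa4, against 187 (1.39%) and 182 (1.35%) of the 13432 other rows. Their median log2 fold change was 0.10, and that of the other rows 0.00. Zfp418 had 2.22, 2.10 and 2.30 CPM after Oboxa4, 1.48, 1.19 and 1.10 CPM after Oboxa7 and 1.87, 1.21 and 0.579 CPM in Control, a log2 fold change of 0.81 ± 0.17 (SE, adjusted p = 0.025). The lower member, Zfp568, had 42.7, 36.8 and 41.3 CPM after Oboxa4, 58.3, 55.9 and 55.2 CPM after Oboxa7 and 34.8, 52.5 and 52.8 CPM in Control. Many Zfp genes are alike in sequence and may share reads.

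Some called genes lie near each other. On chromosome 17 (GRCm38.p6), Egfl8 (34613349 to 34616562), Tnxb (34660453 to 34719815) and C4b (34728139 to 34743902) were all higher after Oboxa4, with log2 fold changes of 1.14, 0.77 and 0.97; reads of adjoining genes may be shared where transcripts overlap. On chromosome 14, Gdf10 (33923587 to 33936514) was higher after Oboxa4, with 3.81, 3.79 and 3.23 CPM, against 2.00, 2.38 and 1.92 CPM after Oboxa7 and 4.20, 1.42 and 1.74 CPM in Control. Its neighbour Rbp3 (33954003 to 33964219) differed in the opposite direction. Both pairs of neighbours were noticed in the data and were not tested.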
